A study of Drosophila melanogaster with 136 samples.

Results

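Poly(A) RNA was compared between S2 cells labelled dora and S2 cells labelled WT, with 3 libraries each. These 6 libraries are all those in the table of untreated dora and WT cells, out of 136 in the series. S2 is a hemocyte-like Drosophila melanogaster cell line, and the series text gives clonal S2 lines as the replicates, so each library stands for 1 clone. All clones grew at 26 °C in Schneider's medium with 10% heat-inactivated serum. The labels give the genotype and not the kind of lesion. A second set of 3 dora and 3 WT libraries came from cells that took up dsRNA against GFP, a control for RNAi (2 µg in each of 2 transfections 3 days apart, collected on day 4 after the second). It was made with another library kit. It is used here for the levels or changes of some named genes in libraries that did not enter the first comparison. For the other named genes no GFP RNAi value is given. Unless they are named as shared calls, the text does not say whether their changes recur there. Small RNA libraries of dora and WT cells (3 each) supply the miRNA levels named below.

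Dora is the Drosophila relative of ZSWIM8, which selects the substrates of a ubiquitin ligase of the cullin type. That ligase acts on Argonaute proteins whose miRNA is paired extensively to a so-called trigger RNA, so that the protein is destroyed and the exposed miRNA is degraded. miRNAs in turn lower the amounts of mRNAs that carry sites for them. The comparison of poly(A) RNA asks which mRNAs stand at other levels in cells labelled dora.

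The dora libraries held 10.7, 12.4 and 11.1 M gene counts, and the WT libraries 12.6, 10.8 and 12.6 M. On the log2 scale Pearson's r over genes was 0.976 to 0.983 among dora libraries, 0.967 to 0.985 among WT libraries and 0.962 to 0.974 between a dora and a WT library. The first principal component, with 39.6% of the variance, put all 3 dora libraries on the other side from all 3 WT libraries. WT replicate 2 stood apart on the second component (27.2%). Of the fat body markers, 5 genes summed to at most 0.143 CPM (counts scaled to library size) in any library, and the hemocyte transcription factor gene srp stood at 354, 421 and 338 CPM in dora clones, against 344, 326 and 303 CPM in WT clones. The gene srp is 1 of 14 hemocyte markers, of which only 7 were high enough to be tested. The 4 neuron markers summed to 250, 270 and 220 CPM in dora clones, against 243, 191 and 206 CPM in WT clones.

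Of 7294 genes tested, 70 were higher in dora cells (0.960%) and 129 were lower (1.77%), 199 in all or 2.73%. A gene was called at an adjusted p (edgeR's quasi-likelihood test, Benjamini-Hochberg) under 0.05, and changes are log2 fold changes, dora over WT, with standard errors (SE). The median change over all genes tested was -0.004. The 70 higher genes had a median change of 0.75 and the 129 lower genes one of -0.91, and 76 of the 199 changed by over 1 either way. All 199 had dora and WT levels that did not overlap, which also held for 29.9% of all genes tested (14.1% with dora above WT and 15.7% with dora below). The counts depend on single libraries: they were 154 higher and 221 lower without WT replicate 2, but 3 and 12 without WT replicate 1, 10 and 27 without WT replicate 3, 10 and 21 without dora replicate 1, 8 and 6 without dora replicate 2, and 13 and 36 without dora replicate 3. In bulk RNA, fewer cells with a transcript and less of it per cell cannot be told apart.

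**Figure D1:**
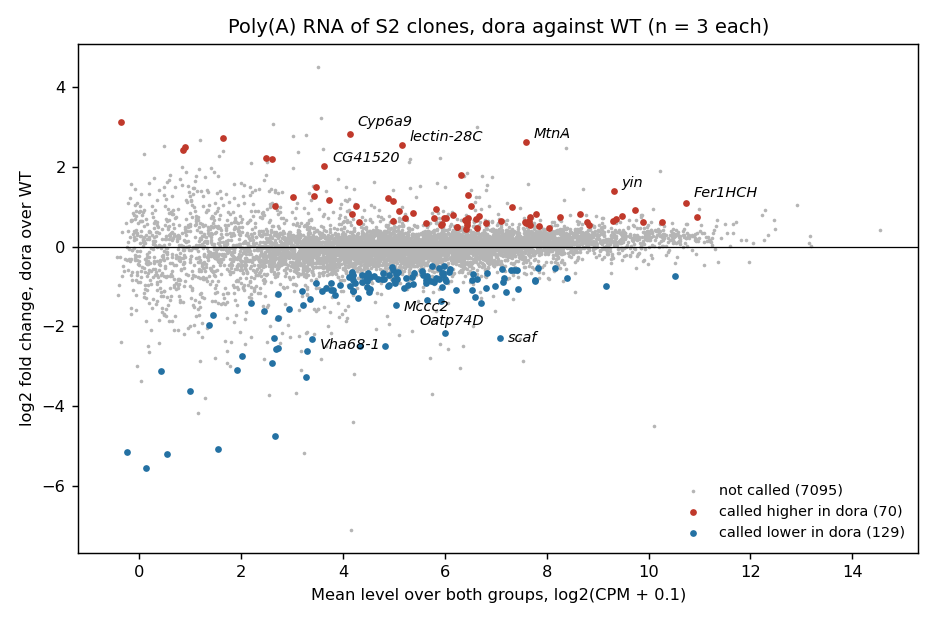
Change of each gene tested (log2 fold change, dora over WT, 3 clones each) against its mean level (log2 of CPM plus 0.1). Red points are the 70 genes called higher in dora and blue points the 129 called lower.

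The gene that was targeted gave no check of the labels at this level. Dora mRNA stood at 117, 132 and 104 CPM in dora clones, against 129, 131 and 122 CPM in WT clones (-0.11, SE 0.11, adjusted p = 0.564 by edgeR), and the groups overlapped. Reads over the whole gene do not say whether the transcript still encodes the protein.

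Only 7 genes were called in the full comparison and also without each of the 6 libraries in turn. Every other mRNA call named below ended without at least 1 library. The 7 are 5 lower genes, Oatp74D, Vha68-1, Mccc2, CG45049 and mbl, and 2 higher genes, yin and CG41520. Oatp74D (FBgn0036732, dm6 3L:17487118-17511693) encodes the importer that carries the steroid hormone ecdysone into cells. Its level was 21.2, 20.7 and 28.3 CPM in dora clones, against 95.6, 106 and 111 CPM in WT clones (-2.15, SE 0.15, adjusted p = 0.00441). The lowest WT clone was over 3 times the highest dora clone. With GFP RNAi it was 51.6, 59.4 and 48.7 CPM in dora clones, against 118, 152 and 105 CPM in WT clones (-1.23, SE 0.15, adjusted p = 0.00175). It was lower in both sets without overlap.

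Vha68-1 (FBgn0265262, dm6 2L:13000770-13004107) encodes one form of the catalytic subunit of the vacuolar proton pump. It stood at 3.39, 2.80 and 4.24 CPM in dora clones, against 16.7, 14.8 and 20.7 CPM in WT clones (-2.32, SE 0.22, adjusted p = 0.00972), and fell as well with GFP RNAi (-1.76, SE 0.28, adjusted p = 0.00783). Its paralog Vha68-2, had 395, 427 and 411 CPM in dora clones, against 340, 332 and 307 CPM in WT clones (0.33, SE 0.09, adjusted p = 0.0958). How the authors' counting treated reads that fit both copies is not given in the sources used here. Of 13 proton pump subunit genes tested Vha68-1 was the only one called, where 2.73% of all genes were called. Of the 13, 11 had a positive change, and the list's median was 0.33. The other negative one was VhaM9.7-c at -0.45 (adjusted p = 0.531). Dora levels lay above all WT levels in 8 of the 13, where 14.1% of all genes tested did so. DESeq2 called 6 higher and 1 lower, and edgeR without a filter on low counts 2 higher and 1 lower.

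The RNA-binding splicing regulator gene mbl (FBgn0265487, dm6 2R:17216549-17379376) stood at 69.7, 77.8 and 71.5 CPM in dora clones, against 149, 165 and 138 CPM in WT clones (-1.04, SE 0.10, adjusted p = 0.00972). CG45049 (FBgn0266409, dm6 3R:22726967-22732362) was at 117, 107 and 113 CPM in dora clones, against 233, 230 and 236 CPM in WT clones (-1.05, SE 0.08, adjusted p = 0.00534). Within each group these levels lay close together and the groups were far apart. CG45049 also fell with GFP RNAi (-1.19, SE 0.17, adjusted p = 0.00436), whereas mbl did not pass there (-0.87, SE 0.34, adjusted p = 0.255).

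The oligopeptide transporter gene yin (FBgn0265575, dm6 X:3862966-3871939) stood at 1076, 829 and 855 CPM in dora clones, against 377, 350 and 329 CPM in WT clones (1.39, SE 0.14, adjusted p = 0.00972). With GFP RNAi it gave 1.28 (SE 0.32, adjusted p = 0.0983), also without overlap, with 352, 535 and 658 CPM in dora clones, against 199, 180 and 257 CPM in WT clones. CG41520 (FBgn0087011, dm6 2R:1649061-1778937) was at 18.2, 18.9 and 22.2 CPM in dora clones, against 5.06, 4.73 and 4.64 CPM in WT clones (2.04, SE 0.15, adjusted p = 0.00441). In the GFP RNAi set CG41520 was between 0.379 and 3.41 CPM in all libraries, and its groups overlapped.

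**Figure D2:**
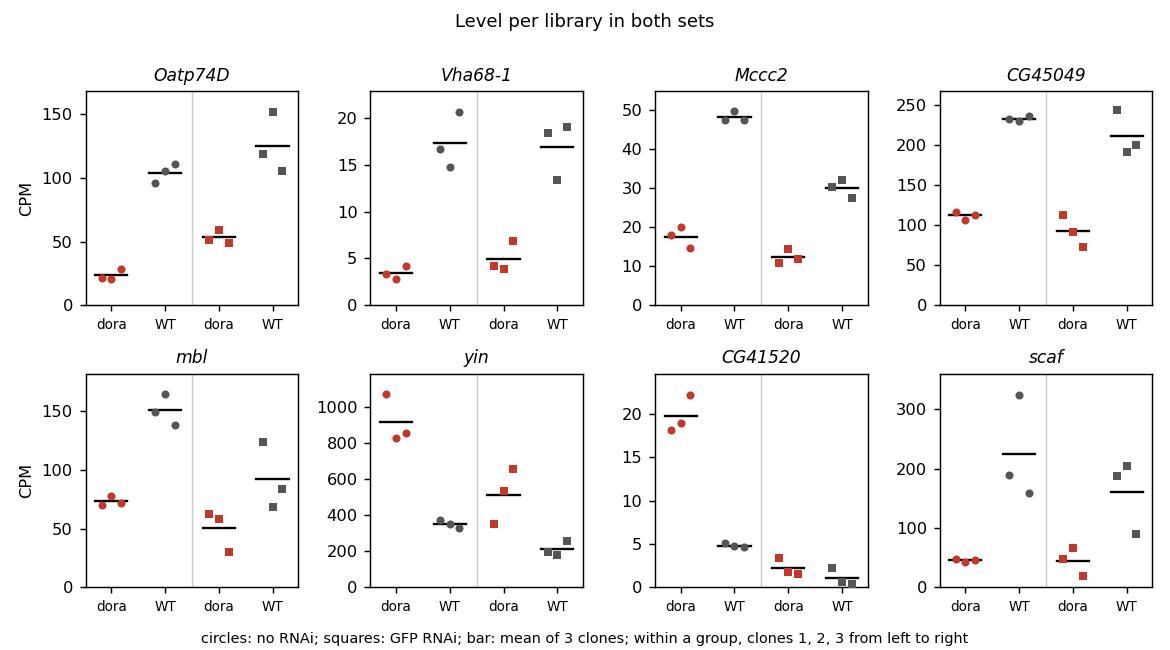
Level (CPM) per clone of the 7 genes called without each library in turn and of scaf, in dora (red) and WT (grey) cells without RNAi (circles) and with GFP RNAi (squares), with the mean of each group of 3 as a bar. Oatp74D, Vha68-1, Mccc2 and CG45049 lay lower in all dora clones of both sets, and CG41520 was low in all GFP RNAi libraries.

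Genes that break down branched-chain amino acids mostly had lower levels. This list of 16 genes, like those of the Hedgehog pathway and of mitosis below, was written after the calls had been seen, so its counts describe the genes and test nothing. Of the 16, all tested, 6 fell and none rose, where 1.77% of all genes tested fell. Dora levels lay wholly below WT levels in 11, where 15.7% of all genes did so, and the median change was -0.76. With GFP RNAi 7 of the 16 fell and the median was -0.82, where 0.916% of all genes fell and 0.267% rose. Without 1 library in turn between 1 and 6 of the 16 fell (1 without WT replicate 1 or dora replicate 2, 3 without WT replicate 3, dora replicate 1 or dora replicate 3), and the median stayed between -0.91 and -0.74. Without WT replicate 2, 6 fell and 1 rose. DESeq2 called 8 lower and 1 higher, and edgeR without a filter on low counts 7 lower and 1 higher.

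The largest fall was in Mccc2 (FBgn0042083, dm6 2R:6746381-6748954), which encodes the beta subunit of methylcrotonyl-CoA carboxylase, an enzyme of leucine breakdown. Mccc2 stood at 18.0, 20.0 and 14.7 CPM in dora clones, against 47.4, 49.7 and 47.5 CPM in WT clones (-1.46, SE 0.13, adjusted p = 0.00871). With GFP RNAi it was at 10.8, 14.4 and 12.0 CPM in dora clones, against 30.2, 32.1 and 27.4 CPM in WT clones (-1.27, SE 0.13, adjusted p = 0.00076). All WT clones were above all dora clones in either set. Mccc1, the gene of the alpha subunit of the same enzyme, fell too (-0.98, SE 0.17, adjusted p = 0.0387, and -0.92 with GFP RNAi, adjusted p = 0.00489).

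For valine, Hibch encodes 3-hydroxyisobutyryl-CoA hydrolase. Its level was 24, 29.7 and 30.6 CPM in dora clones, against 72.9, 60.7 and 80.9 CPM in WT clones (-1.35, SE 0.15, adjusted p = 0.0128), with -1.11 (SE 0.13, adjusted p = 0.00162) under GFP RNAi. CG17896, a predicted methylmalonate-semialdehyde dehydrogenase gene, fell in both sets (-0.89, adjusted p = 0.0178, and -0.90, adjusted p = 0.0172). The enoyl-CoA hydratase gene Echs1 (-0.92, adjusted p = 0.032) and the gene scu (-0.77, adjusted p = 0.0381), whose product oxidizes an intermediate of isoleucine, fell without RNAi. With GFP RNAi Echs1 gave -0.84 (adjusted p = 0.0983) and scu -0.54 (adjusted p = 0.239).

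The first steps of the pathway did not follow this direction throughout. The transaminase gene Bcat gave 0.62 (adjusted p = 0.292) and BckdhB, of the branched-chain keto acid dehydrogenase, 0.62 (adjusted p = 0.0684, with dora levels above WT). Its partner subunits BckdhA (-0.97, adjusted p = 0.101) and Dbct (-1.28, adjusted p = 0.119) had negative changes. In Drosophila miR-277 is known to repress genes of this pathway. In the small RNA libraries miR-277-3p stood at 28760, 23320 and 22352 CPM in dora cells, against 8127, 7786 and 8749 CPM in WT cells (1.59, SE 0.28, adjusted p = 0.00126), where 16.1% of 118 arms were called, 13.6% higher and 2.54% lower. Whether the miRNA bears on these mRNAs was not tested, and the sites in their transcripts were not analysed here.

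Glycolytic enzyme mRNAs mostly had higher levels. All 13 of the list had a positive change, with a median of 0.58. Dora levels lay above all WT levels in 11, where 14.1% of all genes tested did so, and 4 rose, where 0.960% of all genes did: Pfk, Gapdh2, Eno and Pgk. Pfk, whose enzyme commits sugar to the pathway, stood at 356, 415 and 377 CPM in dora clones, against 207, 237 and 240 CPM in WT clones (0.75, SE 0.11, adjusted p = 0.023). Gapdh2 (0.64, adjusted p = 0.0399), the enolase gene Eno (0.63, adjusted p = 0.043) and the phosphoglycerate kinase gene Pgk (0.60, adjusted p = 0.0475) rose by similar amounts. None of these 4 calls survived when any library other than WT replicate 2 was left out, although the list's median then stayed between 0.55 and 0.61. Without WT replicate 2, 6 of the 13 passed, with a median of 0.66. DESeq2 called 10 and edgeR without a filter on low counts 8. The lactate dehydrogenase gene Ldh had 517, 514 and 375 CPM in dora clones, against 173, 558 and 211 CPM in WT clones, so that WT replicate 2 was the highest of all 6.

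Outside the list, and picked from the 70 raised genes after their values were seen, Pgd, of the pentose phosphate pathway (0.57, adjusted p = 0.0399), UGP, which makes UDP-glucose (0.66, adjusted p = 0.0387), Inos, which makes inositol phosphate (0.69, adjusted p = 0.043), and aralar1, a mitochondrial aspartate-glutamate carrier gene (0.84, adjusted p = 0.0178), also rose. With GFP RNAi the glycolytic list had a median of 0.34 with no gene called, and Pfk overlapped between genotypes at 75.1, 88.4 and 152 CPM in dora clones, against 76.2, 78.3 and 83.2 CPM in WT clones. Of 16 genes of the citric acid cycle and 57 of oxidative phosphorylation none passed, and the medians were 0.12 and 0.13.

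**Figure D3:**
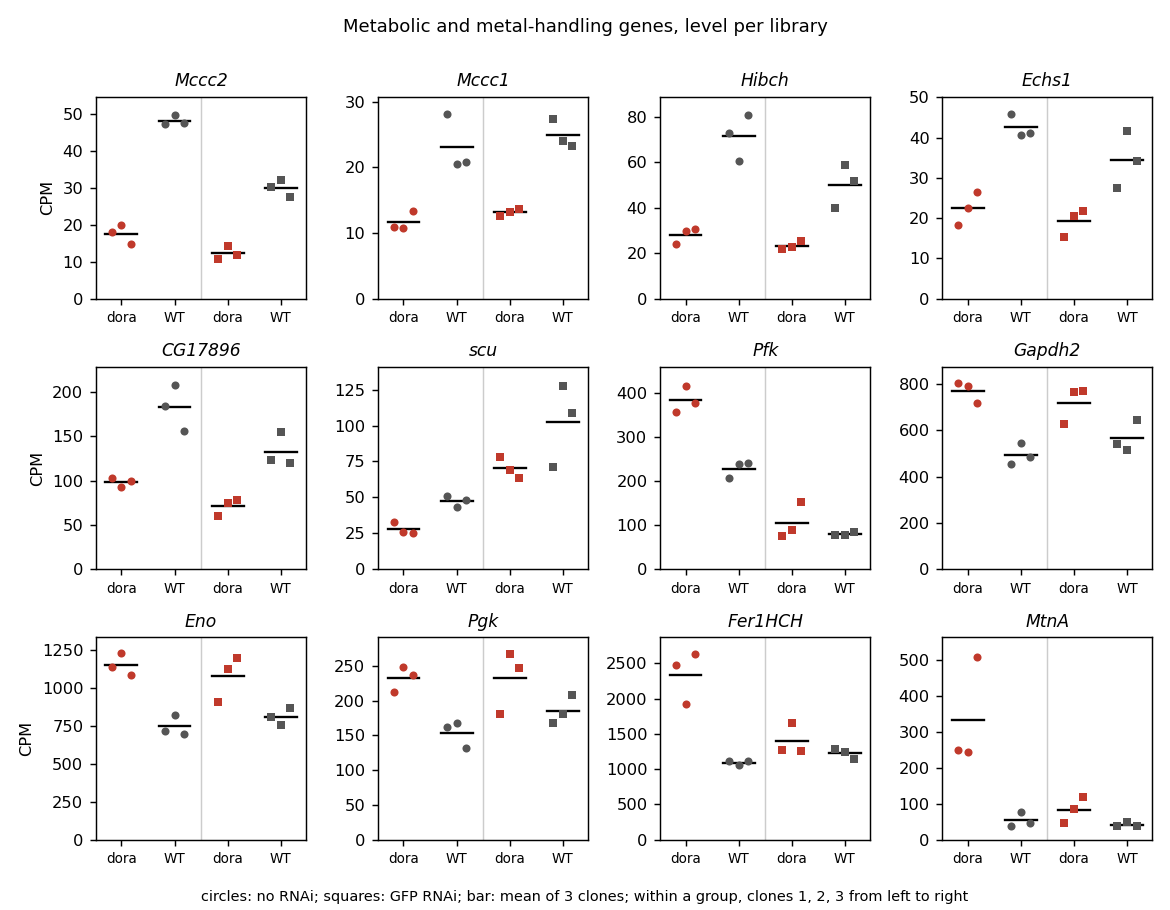
Level (CPM) per clone of 6 branched-chain amino acid genes, 4 glycolytic genes, Fer1HCH and MtnA, in dora (red) and WT (grey) cells without RNAi (circles) and with GFP RNAi (squares), with means of 3 clones as bars. Mccc2, Mccc1, Hibch and CG17896 were lower in dora clones of both sets, and the rise of Fer1HCH in dora clones without RNAi was 1.10 on the log2 scale against 0.19 with GFP RNAi.

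In metal handling, the ferritin heavy chain gene Fer1HCH and the metallothionein gene MtnA rose, 2 of 8 tested, where 0.960% of all genes rose. Fer1HCH stood at 2473, 1917 and 2626 CPM in dora clones, against 1116, 1051 and 1109 CPM in WT clones (1.10, SE 0.15, adjusted p = 0.0178). MtnA was at 249, 242 and 506 CPM in dora clones, against 37.9, 77.1 and 46.2 CPM in WT clones (2.63, SE 0.43, adjusted p = 0.0475). Dora clones were above all WT clones in both genes. With GFP RNAi Fer1HCH overlapped between the groups (0.19, SE 0.13, adjusted p = 0.509) and MtnA gave 1.01 (SE 0.29, adjusted p = 0.138). The test of the difference between the sets gave an unadjusted p = 0.000864 by edgeR for Fer1HCH, which did not pass over 7741 genes, and passed with DESeq2 (adjusted p = 0.0177). With each clone as a block it did not pass (adjusted p = 0.213). MTF-1, the metal-responsive factor that drives metallothionein genes, did not rise (-0.63, SE 0.13, adjusted p = 0.0561), with dora levels below WT, and fell with GFP RNAi (-0.52, SE 0.10, adjusted p = 0.0229).

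Genes of mitosis and cytokinesis mostly had lower levels. Of 39 tested, 10 fell and none rose, where 1.77% of all genes fell. Dora levels lay wholly below WT levels in 29, where 15.7% of all genes did so, and the median was -0.51. The kinesin gene pav, needed at the central spindle, stood at 58.4, 66.9 and 44.7 CPM in dora clones, against 153, 105 and 151 CPM in WT clones (-1.27, SE 0.20, adjusted p = 0.032). The gene pbl, also needed for cytokinesis, fell as well (-1.02, SE 0.18, adjusted p = 0.0399). Both were above every dora clone even in WT replicate 2, the lowest of the WT clones.

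Among centrosome and spindle genes, spd-2 (-0.99, SE 0.14, adjusted p = 0.02), asl (-0.72, SE 0.12, adjusted p = 0.0356) and asp (-0.81, adjusted p = 0.0406) fell. So did Rcc1, whose product loads Ran with GTP (-0.99, adjusted p = 0.0178), the kinesin gene sub (-0.81, adjusted p = 0.0178), and the checkpoint gene mad2 (-0.49, adjusted p = 0.0407). In the GFP RNAi set asl was the only one of the 39 called (-0.56, SE 0.11, adjusted p = 0.0303), and the list's median was -0.23. Without WT replicate 2 the count was 15, and without any other single library it was between 0 (without WT replicate 1, dora replicate 1 or dora replicate 2) and 5 (without dora replicate 3), with medians from -0.63 to -0.43. DESeq2 called 20 lower and 1 higher, and edgeR without a filter on low counts 16 lower.

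Genes of DNA replication and cell cycle control, taken as 1 list, mostly had lower levels. This list shares polo, aurA, aurB, BubR1 and fzy with that of mitosis and cytokinesis. Of 31 genes of replication and cell cycle control 1 fell, the helicase subunit gene Mcm2, where 1.77% of all genes fell, while 28 had a negative change and the median was -0.53. With GFP RNAi 0 of the 31 were called, and the list's median was -0.24. The count of 1 without RNAi depends on the setting: 10 fell without WT replicate 2 and 0 without any other single library, with medians from -0.64 to -0.44, while DESeq2 called 15 and edgeR without a filter on low counts 9. Mcm2 was at 31.9, 44.8 and 40.5 CPM in dora clones, against 70.7, 62.3 and 81.5 CPM in WT clones (-0.87, SE 0.16, adjusted p = 0.0399). Mcm5, Mcm7 and Mcm6 had dora levels below all WT levels without passing (adjusted p = 0.0567, 0.0684 and 0.0529). The regulators E2f1 (0.17) and CycB (0.21) did not share the sign. Outside the list, the DNA polymerase genes PolE1 (-0.64, adjusted p = 0.043) and PolG1 (-0.60, adjusted p = 0.0355), the chromatin assembly gene Caf1-180 (-0.69, adjusted p = 0.043), the histone mRNA binder gene Slbp (-1.04, adjusted p = 0.0167) and the histone variant gene His2Av (-0.59, adjusted p = 0.0349) fell. These, too, were picked from the calls.

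HmgD and HmgZ, neighbours on 2R that encode chromatin proteins of the same family, both fell (-0.78, adjusted p = 0.046, and -0.59, adjusted p = 0.043). Their annotated spans overlap, so their counts are uncertain, as are those of the near-identical Gapdh genes and of MtnA and Cyp6a9, which have close relatives. Only 4 such pairs of adjacent tested genes were called in the same direction, with no run of 3. The share called per chromosome arm ran from 1.94% on 2L to 3.23% on 2R, and none of 64 genes on chromosome 4 was called.

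**Figure D4:**
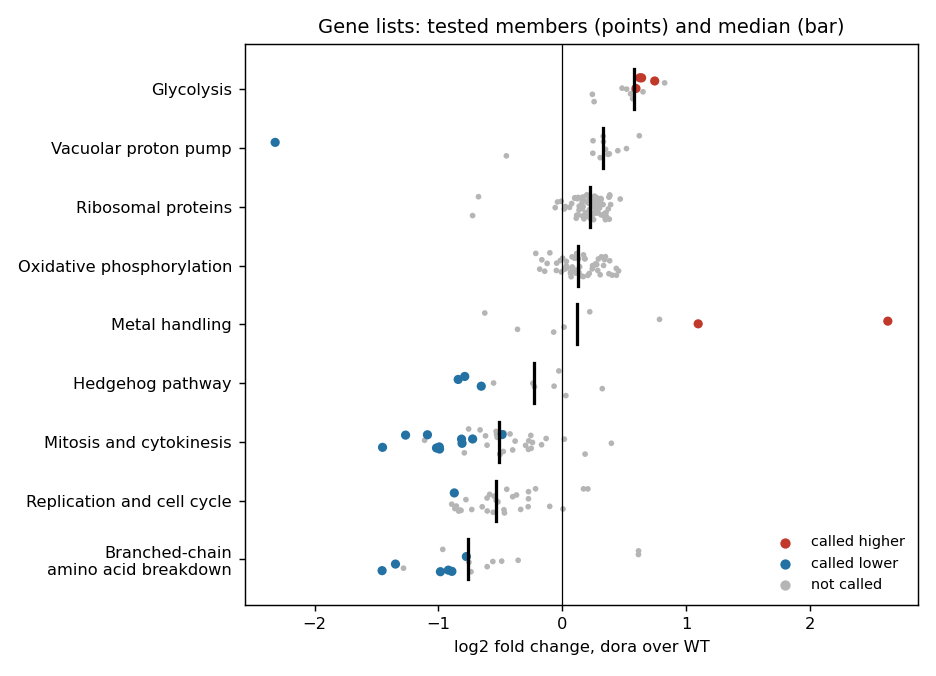
Change (log2 fold change, dora over WT) of every tested member of 9 gene lists, with called genes in red (higher) or blue (lower), genes not called in grey and the median of each list as a bar. Glycolytic genes lay to the right, with a median of 0.58, and branched-chain amino acid genes mostly to the left, with a median of -0.76, while Vha68-1 stood far from the rest of its list.

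In the Hedgehog pathway, 3 of 10 genes tested fell, where 1.77% of all genes did. They are smo, the signal transducer, ptc, the receptor, and cos (also called costa), a kinesin-like scaffold that acts between smo and the transcription factor gene ci. For smo the levels were 34, 35.2 and 37.4 CPM in dora clones, against 68.8, 64.3 and 57.9 CPM in WT clones (-0.84, SE 0.11, adjusted p = 0.0167). With GFP RNAi smo stood at 30.1, 29.8 and 36.7 CPM in dora clones, against 56.3, 61.0 and 49.1 CPM in WT clones (-0.78, SE 0.10, adjusted p = 0.0018). It was lower in all dora clones of both sets. The gene cos fell in both (-0.79, adjusted p = 0.028, and -0.59, adjusted p = 0.00748), and ptc without RNAi (-0.65, adjusted p = 0.043, and -0.32 with GFP RNAi, adjusted p = 0.315). The kinase gene fu (-0.22) and Su(fu) (-0.07) did not pass, and ci was too low to be tested. The count of 3 was 0 without WT replicate 1, dora replicate 1 or dora replicate 2, 1 without WT replicate 3 and 2 without dora replicate 3.

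Vang, a planar polarity membrane protein gene, fell to 151, 157 and 155 CPM in dora clones, against 280, 296 and 269 CPM in WT clones (-0.87, SE 0.09, adjusted p = 0.00978), and also with GFP RNAi (-0.87, SE 0.10, adjusted p = 0.00115). The BMP receptor gene tkv fell slightly (-0.53, adjusted p = 0.0478, and -0.46 with GFP RNAi, adjusted p = 0.0217). Dronc, the initiator caspase gene, was at 39.5, 43.9 and 54.8 CPM in dora clones, against 77.3, 94.7 and 79.6 CPM in WT clones (-0.86, SE 0.15, adjusted p = 0.0359). Dronc also fell with GFP RNAi (-1.06, SE 0.13, adjusted p = 0.00175). Without RNAi it was the only one of 12 apoptosis genes called, where 2.73% of all genes were called. With GFP RNAi 0 of 14 tested rose and 2 fell, where 0.267% of all genes rose and 0.916% fell. Of 20 innate immunity genes, the C-type lectin gene lectin-28C and the Toll pathway kinase gene pll rose, where 0.960% of all genes did. The kinase gene pll was at 43.7, 47.8 and 39.2 CPM in dora clones, against 17.7, 19.0 and 21.9 CPM in WT clones (1.16, SE 0.13, adjusted p = 0.0128). For lectin-28C the levels were 37.2, 78.2 and 66.6 CPM in dora clones, against 11.8, 8.99 and 10.3 CPM in WT clones (2.55, SE 0.29, adjusted p = 0.0167). Dora clones were above WT clones for both genes. With GFP RNAi pll gave 0.38 (SE 0.11, adjusted p = 0.131). Of 22 innate immunity genes tested there, 0 were called higher and 1 lower.

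Transcripts known to act as triggers were examined in the same libraries. Of 5 trigger genes tested only the TNF receptor gene wgn, which pairs with miR-190, fell, where 1.77% of all genes did. It stood at 178, 145 and 147 CPM in dora clones, against 303, 299 and 237 CPM in WT clones (-0.84, SE 0.13, adjusted p = 0.032), and -0.96 (SE 0.10, adjusted p = 0.00101) with GFP RNAi. Kah (-0.68), hairy (hry, -0.32), AGO1 (-0.23) and zfh1 (0.05) did not pass. Dora levels lay wholly below WT levels in 3 of the 5, where 15.7% of all genes tested did so. The list's median was -0.32, and -0.42 with GFP RNAi. The noncoding RNA gene lncRNA:marge (CR43432), also on the list, was too low to be tested.

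Several of the raised miRNAs lie within the annotated span of a protein-coding gene, so their hosts were examined. The spans of HnRNP-K (mir-7), rhea (mir-190), grp (mir-9b and mir-9c), Gmap (mir-12) and CASK (mir-999) hold them, and the reference used gives no strand. None of the 5 passed: Gmap gave 0.55 (adjusted p = 0.0664), HnRNP-K 0.24 (adjusted p = 0.147), rhea 0.23 (adjusted p = 0.345), CASK 0.04 (adjusted p = 0.854) and grp -0.37 (adjusted p = 0.0752). For miR-7-5p, by contrast, the levels were 4189, 3389 and 3782 CPM in dora cells, against 247, 268 and 234 CPM in WT cells (3.92, SE 0.37, adjusted p = 9.69e-06). Gmap stood at 149, 160 and 183 CPM in dora clones, against 129, 99.3 and 107 CPM in WT clones, while miR-12-5p was at 4998, 6014 and 6901 CPM in dora cells, against 537, 199 and 441 CPM in WT cells. In the small RNA machinery 1 of 17 genes was called, the Dicer partner gene loqs, where 2.73% of all genes were called. It stood at 15.6, 16.2 and 19.6 CPM in dora clones, against 28.8, 27.3 and 30.3 CPM in WT clones (-0.75, SE 0.13, adjusted p = 0.0355). With GFP RNAi loqs did not pass (-0.24, adjusted p = 0.385).

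The most changed genes by the naming rule were a mixed group. Cyp6a9, a cytochrome P450 gene, stood at 16.8, 35.5 and 39.3 CPM in dora clones, against 4.04, 4.82 and 4.00 CPM in WT clones (2.84, SE 0.33, adjusted p = 0.0167), and with GFP RNAi it gave 0.45 (adjusted p = 0.77). The ecdysone-induced factor gene Eip93F rose (2.23, SE 0.30, adjusted p = 0.0178) as the only one of 15 ecdysone response genes called, where 2.73% of all genes were called. The segmentation gene gsb rose in both sets, with 5.96, 6.65 and 3.18 CPM in dora clones, against 0.660, 0.757 and 0.928 CPM in WT clones (2.73, SE 0.40, adjusted p = 0.023), and 2.57 (SE 0.52, adjusted p = 0.0419) with GFP RNAi.

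Other genes among the 15 most raised were Marc (2.21, SE 0.27, adjusted p = 0.0155), l(3)neo38, CG15611 and the cysteine protease inhibitor gene Cys (1.22, SE 0.23, adjusted p = 0.043). CG15611 was at 106, 148 and 122 CPM in dora clones, against 46.7, 56.4 and 48.8 CPM in WT clones (1.3, SE 0.14, adjusted p = 0.0128), and kept its call without 5 of the 6 libraries. All dora clones were above all WT clones, whereas with GFP RNAi CG15611 did not pass (0.44, SE 0.26, adjusted p = 0.438). The list of cytochrome P450 genes was drawn by symbol and also takes in Cyp1 and Cyp40, which are not P450 genes. Of its 36 genes tested, Cyp4g1 also rose (1.02, SE 0.16, adjusted p = 0.0305) and Cyp310a1 fell (-1.29, SE 0.21, adjusted p = 0.032), where 0.960% of all genes rose and 1.77% fell. In nutrient transport, where yin rose, the sugar transporter gene sut1 fell (-1.3, SE 0.26, adjusted p = 0.0476). These are 2 calls among 10 genes tested, where 2.73% of all genes were called. Of 7 genes of the integrated stress response, the asparagine synthetase gene AsnS rose (0.55, SE 0.10, adjusted p = 0.0399), where 0.960% of all genes rose.

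Among the 15 most lowered genes, scaf, which encodes a protein of the serine protease family without catalytic activity, was lower in every dora clone. Its level was 48.4, 42.5 and 46.5 CPM in dora clones, against 190, 324 and 159 CPM in WT clones (-2.29, SE 0.27, adjusted p = 0.0181). The gene hdly also fell (-2.50, SE 0.29, adjusted p = 0.0167), with 4.62, 11 and 9.80 CPM in dora clones, against 47.3, 50.1 and 47.4 CPM in WT clones. APC7, a subunit gene of the mitotic ubiquitin ligase, fell (-2.29, SE 0.35, adjusted p = 0.0289). CG10814 and CG10184 were nearly absent in dora clones, at 0.103 to 0.177 CPM against 2.08 to 11.9 CPM in WT clones for CG10814, and at 0.177 to 0.822 CPM against 8.51 to 19.1 CPM in WT clones for CG10184. With GFP RNAi CG10184 overlapped between the groups, at 3.82 to 17 CPM in dora clones, against 7.10 to 21.4 CPM in WT clones. The neuropeptide gene Orcokinin (-2.91, SE 0.47, adjusted p = 0.0349) and the pheromone-sensing receptor partner gene Snmp1 (-2.57, SE 0.40, adjusted p = 0.0289) also fell.

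With GFP RNAi 93 of 7861 genes were called (1.18%), 21 higher (0.267%) and 72 lower (0.916%). These calls rest on a spread estimated also from Ago1 RNAi libraries of the same clone numbers, with no term for the clone. In a fit to the compared groups alone 12 genes were higher and 32 lower, and 39 of the 93 calls were kept. The shared calls below use the 93. The sets shared 26 calls, 4 higher and 22 lower, which is 13.1% of the 199 and 28% of the 93, and no gene was called in opposite directions. Besides those above, and named after their values were seen, the shared calls include the GPI anchor gene PIG-F (-1.11), the glutathione transferase gene GstT1 (-0.80), the heparan sulfate 6-O-sulfotransferase gene Hs6st (-0.91), SMC6, of a complex for chromosome repair (-0.80), and the tubulin folding cofactor gene Tbcb (0.77). Over the genes called without RNAi, the median was 0.39 with GFP RNAi for the 69 higher ones tested there and -0.42 for the 129 lower ones. These genes had been picked by their values without RNAi. A test of the difference of the effects called none of 7741 genes with edgeR, with 510 at an unadjusted p under 0.05. DESeq2 called 3 higher and 2 lower, among them Fer1HCH. On simulated counts with spread between libraries but no clone effect shared by both sets, edgeR found 33 of 100 2-fold differences and 86 of 100 4-fold ones. DESeq2 had 24 false calls among 161 there. These rates may not hold for the real sets, where same-numbered clones recur. A call of none thus does not mean that the effects were equal. That edgeR fit has no term for the clone, although same-numbered clones recur in both sets. With each clone as a block, a setting chosen after seeing the data, edgeR called 4 higher and 2 lower and found 768 genes at an unadjusted p under 0.05. The 6 include CG10184, with a difference of -4.11 on the log2 scale (no RNAi minus GFP RNAi, SE 0.40, adjusted p = 0.0035), and the glutamine synthetase gene Gs1 (-1.68, SE 0.23, adjusted p = 0.0265), which was picked after its values were seen.

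**Figure D5:**
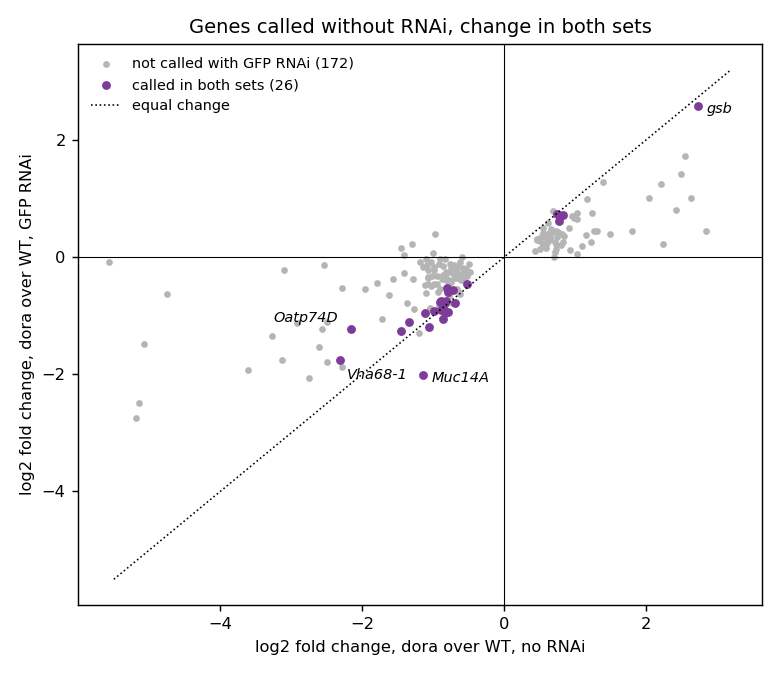
Change in the GFP RNAi set against the change without RNAi (both log2 fold change, dora over WT) for the 198 genes called without RNAi that were tested in both sets. Purple points are the 26 genes called in both sets, and the dotted line marks equal change.

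The sets are not independent of each other. When each library's deviation from its group mean was taken over 7228 genes, same-numbered clones of both sets correlated at 0.39, 0.48 and 0.47 in dora and 0.35, 0.61 and 0.55 in WT, across genes, while differently numbered clones gave 0.07 at most. A difference between clones would thus recur in both sets, and the genotype of 3 clones cannot be told apart from the clones themselves by these libraries. The collagen IV gene Col4a1 stood at 14792, 15270 and 1206 CPM in dora clones, against 284, 13477 and 1462 CPM in WT clones, and its partner vkg at 9031, 9700 and 808 CPM, against 178, 9144 and 954 CPM. With GFP RNAi Col4a1 was at 8979, 15949 and 2400 CPM in dora clones, against 1038, 11026 and 1339 CPM in WT clones. Clones 1 and 2 of dora and clone 2 of WT were thus high in both sets, across genotypes. The 14 hemocyte markers, to which both collagen genes belong, summed to 3417 to 26511 CPM in dora clones, against 1934 to 23904 CPM in WT clones, and their part in the results above was not tested. Of these markers srp, ush and crq were at 262 CPM or more in every library without RNAi, while lz and PPO2 were at 0 in all of them.

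Single clones also carried genes that no other clone expressed at a like level. The adhesion receptor gene kirre was at 0, 0.175 and 0.530 CPM in dora clones, against 0.954, 104 and 1.07 CPM in WT clones. The engulfment receptor gene drpr was at 21.1, 1.31 and 1.24 CPM in dora clones, against 3.67, 290 and 4.92 CPM in WT clones. WT replicate 2 was the high clone for both, and with GFP RNAi it was so again, at 54.4 CPM for kirre and 165 CPM for drpr. The number of genes with 1 library at least 4 times above all others was 4, 1 and 2 for dora clones, against 0, 11 and 7 for WT clones, among 6022 genes at 10 CPM or more in some library.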

How the data were processed

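Counts per gene or per miRNA arm were used as deposited. The submitters' processing notes name dm6, STAR 2.4 and HTSeq, without roles. The handling of strand and of reads with several matches is not given in the sources used here. Per the labels' protocols, the libraries without RNAi came from a directional kit and 50-nt single-end reads. Of the counts, 9.93% to 12.8% lay in rows that name no gene and were left out. The table holds 17477 genes, 17226 with a symbol in the reference. Coordinates are those of the RefSeq annotation of Release 6 (dm6).

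Counts were fitted with edgeR 4.0.16 in R 4.3.3 (quasi-likelihood, robust, TMM scaling, filterByExpr), with 1 coefficient per group. The RNAi fit also held the Ago1 knockdown groups, and the small RNA fit the kah and ago1 groups. CPM are counts over TMM-scaled library sizes, and SE is the change divided by the square root of F. Levels are not scaled to gene length, so they are not compared between genes. No pair of replicates agreed within sampling noise (lowest chi-square per gene 23.1). The scripts were checked on simulated counts. Alternatives were DESeq2 1.42.0, limma 3.58.1 (voom), RLE and upper-quartile scaling, other filters, a replicate block, leaving out each library and, added after seeing the data, a block for each clone over both RNA sets.

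The genes, lists and tests were chosen with earlier results of these data known. By rule, the text takes its named genes from the 15 most raised and 15 most lowered called genes at 5 CPM or more without overlap, up to 10 genes called in both sets, genes called without each library in turn, triggers, hosts, and up to 4 called members of each list, 9 miRNA arms, and genes high in 1 library. All other genes in the text, and 3 of the lists, were chosen after their values were seen. The p-values of the comparison without RNAi measure only the spread from clone to clone, which includes technical spread. The RNAi fit takes its spread from GFP and Ago1 RNAi libraries together. The same clone numbers recur in both, and that fit has no term for the clone. With each clone as a block over both sets, the p-values measure spread within clones.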

Additional observations from a re-analysis of the deposited data

How the results depend on the processing

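Of 257 genes followed, none reversed under any alternative run for the comparison without RNAi, though calls were often lost (1106 of the gene and setting pairs) and sometimes gained (33), and the 9 named miRNA arms kept their calls under all alternatives. The 70 higher and 129 lower genes became 363 and 432 with DESeq2, which called all 199 again, 124 and 259 without a filter on low counts, and 3 to 154 and 6 to 221 when 1 library was left out. With the replicate number as a replicate block they were 13 and 19. Same-numbered dora and WT clones correlated at -0.28, -0.06 and 0.16 without RNAi and at 0.08, -0.08 and 0.16 with GFP RNAi, so the numbers do not pair them. With GFP RNAi the 21 higher and 72 lower genes became 140 and 190 with DESeq2, 131 and 186 with the replicate block, 12 and 32 in a fit to the compared groups alone, and 10 to 28 and 36 to 65 with 1 library left out. For the difference between sets DESeq2 gave 3 and 2, leaving out 1 library gave 0 and 0, and the fit with each clone as a replicate block over both sets, chosen after seeing the data, gave 4 and 2. The cause of these shifts was not tested, beyond the fewer samples of the fits that leave some out.

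In small RNA the 16 higher arms ranged from 12 to 18, and the 3 lower arms from 2 to 7, with 1 library left out. The lower arms numbered 7 with DESeq2, 5 with RLE scaling, 9 without a filter, 5 at a mean of at least 5 CPM, 12 in the compared groups alone and 53 with upper-quartile scaling, which moved the median of all arms from -0.10 to -0.87. The counts of sites in transcripts were not run, since no genome sequence was used here. Depth was 10.7 to 12.6 M counts without RNAi, and 10 called genes had under 5 CPM in both groups.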

Other observations

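The glial junction gene moody stood at 126, 126 and 129 CPM in dora clones, against 141, 99.0 and 119 CPM in WT clones. Markers of the germline summed to 20.8, 13.0 and 12.2 CPM in dora clones, against 15.9, 20.5 and 23.5 CPM in WT clones. No gene of 5 hemocyte identity genes tested was called.

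Ribosomal protein mRNAs had positive changes in 74 of 79 genes tested, with a median of 0.23, and edgeR called none and DESeq2 2, both higher. The median was 0.12 without WT replicate 3 and 0.34 without WT replicate 2. Of 23 cullin-RING ligase genes tested and 32 proteasome genes, none was called either, with medians of 0.09 and 0.03.

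Several genes differed strongly between clones of 1 genotype. The secreted matrix protein gene SPARC was at 9.25, 49.5 and 54.1 CPM in dora clones, against 316, 19.8 and 110 CPM in WT clones. The insulin-binding protein gene ImpL2 was at 10851, 7908 and 2083 CPM in dora clones, against 4408, 4518 and 4070 CPM in WT clones. Neither passed, with adjusted p = 0.395 and 0.512 by edgeR.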
